A study of Mus musculus with 16 samples.

Results

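The Wnt genes described here were the secreted Wnt ligands, their Frizzled and LRP receptors and the secreted proteins that hold Wnt signaling back or amplify it. They were all protein-coding genes of the deposited table whose symbol names a Wnt, a Frizzled (Fzd), Lrp5 or Lrp6, a secreted Frizzled-related protein (Sfrp or Frzb), Wif1, a Dickkopf (Dkk) or an R-spondin (Rspo), which gave 45 of 56748 genes. These were 19 ligands, 12 receptors, 10 inhibitors and 4 R-spondins. The RNA came from the LMMP, a strip of longitudinal muscle to which the myenteric plexus adheres, of both colon segments of WT (Ednrb +/+) and HSCR (Ednrb-/-) mice. Ednrb encodes the endothelin receptor B, and mice without it are a model of Hirschsprung disease, in which the distal bowel lacks enteric ganglia. There were 4 groups of 4 libraries each: WT proximal, WT distal, HSCR proximal and HSCR distal. Per the study's methods, HSCR mice carried the Ednrb tm1Ywa allele on a hybrid C57BL6/J-129Sv background and were compared with littermates between 2 and 4 weeks of age, with both sexes used. The allele is a germline change and is not limited to the enteric neural crest lineage. The ganglionic proximal colon of HSCR mice was taken according to where the bowel was distended, so the site of sampling could vary between animals. The labels do not say which proximal and distal libraries came from the same mouse.

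Wnt ligands are lipid-modified secreted proteins that act over short distances on Frizzled receptors. With Lrp5 or Lrp6 as co-receptor, a Frizzled receptor stabilizes beta-catenin and turns on TCF/LEF target genes, whereas Wnt5a and related ligands also act through beta-catenin-independent pathways that set cell polarity and movement. Sfrp proteins, Frzb and Wif1 bind the ligands outside the cell, most Dickkopf proteins bind LRP co-receptors, and R-spondins raise the number of Frizzled receptors at the surface by removing the ubiquitin ligases Znrf3 and Rnf43. In the gut, stromal and muscle cells under the epithelium are a main source of these ligands and secreted regulators.

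Between 21384372 and 45831881 reads per library were counted on genes, and mitochondrial genes took between 4.32% and 49.8% of them. The comparison therefore rests on a wide spread of usable depth, and the biological coefficient of variation over the 16 libraries was 0.794. Ednrb itself read between 33.9 and 67.7 CPM (counts scaled to library size) in WT proximal libraries, and 7.85, 12.6, 36.3 and 35.8 CPM in the HSCR proximal libraries 1 to 4. The library labelled HSCR distal 1 read 97.0 CPM, the highest of all 16, against 5.55 to 9.57 CPM in the other 3 HSCR distal libraries. The distal Hox gene Hoxd13 was at 125 CPM in the library labelled HSCR proximal 1 and at 0.629 CPM in that labelled HSCR distal 1. The other 3 HSCR proximal libraries held 0.643 to 2.49 CPM and the other 3 HSCR distal libraries 14.1 to 210 CPM. Both libraries numbered 1 of HSCR thus went against their segment labels, and the tests of members below that use HSCR libraries are given with and without both. Other HSCR libraries were also not clear in every marker. Hoxb13, another distal Hox gene, was at 37.0 CPM in HSCR proximal 2 and at 0 to 1.27 CPM in the other HSCR proximal libraries. Hoxb13 was at 0.0461 CPM in HSCR distal 4. That library also held the lowest distal value of Hoxd13, 14.1 CPM. This lay within the WT proximal range of 0.904 to 23.9 CPM and below the WT distal range of 112 to 201 CPM. HSCR distal 4 was kept in the results given without both libraries numbered 1. Ednrb in HSCR proximal 3 and 4 lay within the WT proximal range. Smooth muscle markers (8 genes, between 4670 and 95500 CPM in sum) were high in every library, with the low end in HSCR proximal 2, which also had the highest epithelial sum (15 genes, 19700 CPM against 46.9 to 5970 CPM elsewhere). In bulk tissue, fewer cells of a type and less RNA per cell cannot be told apart.

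With the Dickkopf Dkk3 counted among them, inhibitors took the largest share of the Wnt transcripts in WT. On the deposited FPKM scale, which corrects for gene length and allows levels of different genes to be compared, inhibitors took between 50.5% and 61.0% of the summed FPKM of the 45 genes in the WT proximal libraries and between 51.0% and 62.6% in the WT distal libraries. Receptors took a median of 30.5% over all 16 libraries, ligands 8.33% and R-spondins 4.97%. The range of the inhibitor share was wider in HSCR, at 30.8% to 57.4% in the proximal and 35.5% to 55.3% in the distal libraries. In HSCR proximal 2 receptors took more than inhibitors (48.7% against 30.8%), as they did in HSCR distal 4 (51.2% against 35.5%). Dkk3, classed as an inhibitor by its name, took 29.8 to 60.0 FPKM in WT proximal and 13.4 to 87.6 FPKM in WT distal libraries. The inhibitor share thus depends on how this gene is classed. These shares were not tested.

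The most abundant member by mean level was Dkk3, a divergent Dickkopf, with a mean of 51.0 FPKM over the 16 libraries and a range of 8.98 to 99.6 FPKM. Sfrp1, which binds Wnt ligands, came next at 26.8 FPKM (6.31 to 63.5), ahead of the receptor Fzd2 at 21.0 FPKM and the inhibitor Sfrp2 at 18.9 FPKM. Fzd1, Frzb, Fzd7 and Sfrp5 followed between 10.5 and 14.8 FPKM. Ranges of neighbors in this order overlapped, so the order is one of means and not of separate levels. The highest ligand was Wnt5a, the typical beta-catenin-independent Wnt, at 6.36 FPKM, close to the highest R-spondin, Rspo3, at 6.41 FPKM. Wnt5b (4.38 FPKM), Wnt6 (2.23 FPKM), Wnt9a (2.14 FPKM) and Wnt11 (1.65 FPKM) were the next ligands. The LRP co-receptors averaged 7.65 FPKM for Lrp6 and 5.75 FPKM for Lrp5. The Frizzled family spanned from Fzd2 down to Fzd10 at 0.236 FPKM.

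Of the 45 genes, 34 passed the filter on low counts: all 12 receptors, 11 of the 19 ligands, 8 of the 10 inhibitors and 3 of the 4 R-spondins. Wnt1 and Wnt8a had no count in any library. The other 9 that were left out (Wnt3, Wnt3a, Wnt7a, Wnt8b, Wnt9b, Wnt10a, Dkk1, Dkk4 and Rspo4) had between 7 and 125 counts in all 16 libraries together. Classical beta-catenin ligands such as Wnt1, Wnt3, Wnt3a and Wnt8a were thus at or near the limit of detection in this muscle layer, and 86 of the 125 Wnt3 counts came from 1 library, WT proximal 2. Genes whose spans cross those of members had at most 190 counts in all libraries together, except for the protein-coding gene Fbxl14 (13606 counts), which crosses Wnt5b on the opposite strand. Whether counting used the strand is not given in the sources used here, so reads of those 2 genes may not have been separated.

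**Figure D1:**
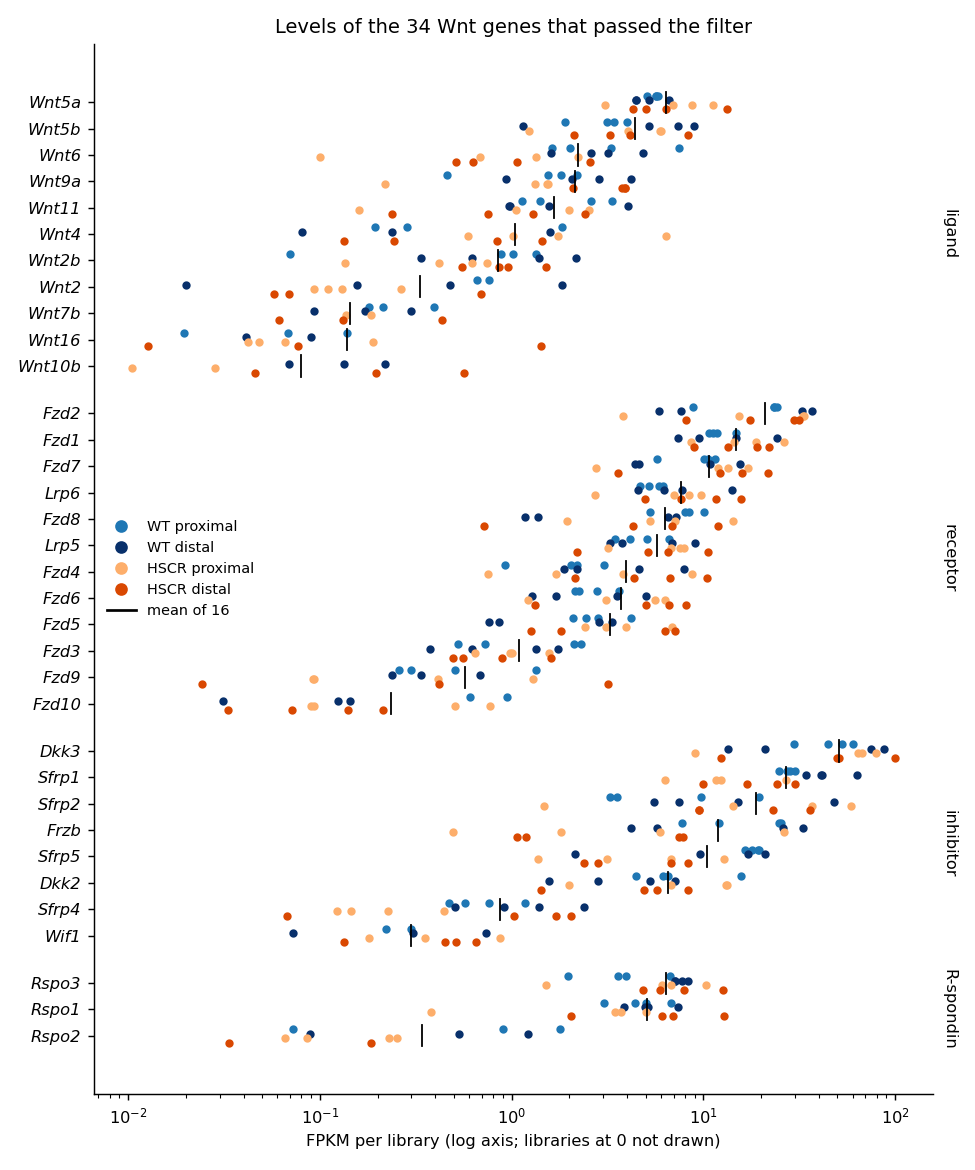
FPKM of each of the 34 Wnt genes that passed the filter, on a log axis, with 1 point per library colored by group and a black bar at the mean of 16 libraries. Inhibitors and Frizzled receptors lie at the top of the scale, with Dkk3 at a mean of 51.0 FPKM, and the highest ligand is Wnt5a at 6.36 FPKM.

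The regional question was whether these genes differ between the distal and the proximal colon. In WT mice, Sfrp1 and Rspo3 were the members whose distal libraries all lay above the proximal ones. No member passed the test at an adjusted p under 0.05 in edgeR's quasi-likelihood test, and neither did any other gene (0% of 18619). Of the 34 members, 1 had an unadjusted p under 0.05, against 4.87% of all genes tested. It was Wnt10b, which passed the filter on low counts only through distal libraries. The median log2 fold change was 0.086 over the members and 0.010 over all genes. The 2 members with no overlap stand against 4.12% of all genes. RUVr, the removal of unwanted variation used by the study (4 factors, likelihood ratio test), called 1 member, Wnt10b, with 6.64% of all genes. Earlier results of these data, not given here, had shown false calls under RUVr, so it served only as an alternative here and below. Whether its calls of members were false was not tested.

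Sfrp1 (chr8:23901518-23939648 in mm39, plus strand) read 120, 133, 126 and 109 CPM in the WT proximal libraries 1 to 4, and 149, 184, 182 and 289 CPM in the WT distal ones. The proximal libraries were close together, at 122 ± 9.89 CPM (mean ± SD, n = 4), and the distal libraries were spread upward, at 201 ± 61.0 CPM. Its log2 fold change was 0.72 with an SE of 0.40 (adjusted p = 0.956 in edgeR's quasi-likelihood test). Rspo3 (chr10:29328412-29411863, minus strand) encodes an R-spondin made by stromal cells of the gut. It read 6.18, 20.9, 12.3 and 11.1 CPM in the proximal and 23.7, 22.2, 26.0 and 23.0 CPM in the distal libraries of WT. Its distal values were nearly uniform and its proximal values varied, with WT proximal 2 just below the distal range. Distal over proximal gave a log2 fold change of 0.91 (SE 0.49, adjusted p = 0.956). Within both series of library names the differences of Rspo3 were alike, at 1.01 for libraries numbered 1 and 2 and 1.06 for those numbered 3 and 4 on the mean log2 CPM scale, while those of Sfrp1 were 0.39 and 0.97.

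Among the other inhibitors, Dkk2 (chr3:131791053-131886065, plus strand), a Dickkopf that binds LRP co-receptors, averaged 30.7 ± 18.9 CPM in WT proximal and 15.8 ± 9.30 CPM in WT distal libraries. Its ranges overlapped, and WT proximal 2 held 58.7 CPM against 16.6 to 24.4 CPM in the other 3. Its log2 fold change of -0.96 (SE 0.64, adjusted p = 0.956) was -0.44 without WT proximal 2. Dkk3 (chr7:111715224-111758264, minus strand) read 152, 101, 205 and 178 CPM in the proximal and 44.5, 71.3, 254 and 307 CPM in the distal libraries. The distal libraries thus fell on both sides of the proximal range, and the log2 fold change was 0.090 (SE 0.70, adjusted p = 0.995). Sfrp5, another Frizzled-related inhibitor, had a tight WT proximal group, with 37.0, 34.5, 37.9 and 31.5 CPM. In the WT distal group it read 4.01, 18.5, 40.4 and 33.9 CPM, so that libraries 1 and 2 were low and libraries 3 and 4 were within or just above the proximal range.

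The ligand Wnt10b (chr15:98668593-98676031, minus strand), which signals through beta-catenin, had the smallest p in this comparison, from very few reads. Proximal libraries of either genotype held at most 4 counts of Wnt10b, so the filter itself favored a higher distal value. With a filter of CPM above 1 in 4 libraries, 0 of 32 members had an unadjusted p under 0.05, with 712 of 15869 genes. Wnt10b was not among those 32. In WT, Wnt10b had no count in any of the 4 proximal libraries and was at 0.735, 0.462, 0.237 and 0 CPM in the distal ones. Against a floor of 3 counts per library its distal mean was at least 2.67-fold higher (adjusted p = 0.956). The fitted log2 fold change of 6.65 depends on the prior count and sets no bound. Wnt5b (chr6:119409492-119521308, minus strand), a close relative of Wnt5a, read 5.12, 10.7, 9.21 and 8.38 CPM in the proximal and 3.01, 14.0, 24.0 and 20.4 CPM in the distal libraries (log2 fold change 0.88, SE 0.61, adjusted p = 0.956). Within libraries 1 and 2 its difference was -0.19, and within libraries 3 and 4 it was 1.33. Within WT, Wnt5a (chr14:28226707-28249405, plus strand) was the steadiest of the abundant members. It read 40.2, 45.8, 44.9 and 44.8 CPM in the proximal and 34.5, 41.4, 35.1 and 53.6 CPM in the distal libraries of WT. Its log2 fold change of -0.093 was smaller than its SE of 0.38.

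Over all WT libraries, receptor levels did not separate the segments. Of the 12 receptors, 6 had a log2 fold change above 0 and 6 below, with a median of 0.0014, and none had an unadjusted p under 0.05. With the library series as a term 4 were above 0 (median -0.27), and without WT distal 4 there were 2. Within each series of library names, Fzd2, Fzd5, Fzd6 and Fzd7 did not overlap between segments, but in opposite directions. Their differences in mean log2 CPM were -1.11, -1.99, -0.92 and -0.86 for libraries 1 and 2. For libraries 3 and 4 they were 0.57, 0.37, 0.77 and 0.36. Fzd8 was lower in the distal libraries without overlap in both series (-2.52 and -0.25). The other receptors overlapped in at least 1 series. Fzd4 (chr7:89053563-89062342, plus strand), which also binds the non-Wnt ligand Norrin, read 13.9, 6.23, 20.8 and 14.9 CPM in the proximal and 12.5, 14.9, 31.3 and 55.6 CPM in the distal libraries. Its log2 fold change of 1.03 (SE 0.70, adjusted p = 0.956) was 0.52 without WT distal 4. Fzd10 (chr5:128677908-128681157, plus strand) was scarce, at 0, 0, 3.11 and 1.99 CPM against 0.100, 0, 0.475 and 0.423 CPM (log2 fold change -2.33, SE 1.57, adjusted p = 0.956). Fzd2 (chr11:102495222-102498884, plus strand), the most abundant Frizzled, read 32.6, 86.5, 86.6 and 89.2 CPM in the proximal and 27.7, 21.8, 122 and 141 CPM in the distal libraries. As for Dkk3, the distal group lay on both sides of the proximal one, and the log2 fold change was 0.081 (SE 0.69, adjusted p = 0.996). Rspo2 (chr15:42884190-43034222, minus strand) was split in the same way in both segments, with 0.377, 0, 4.67 and 9.24 CPM in the proximal and 0, 0.462, 6.33 and 2.84 CPM in the distal libraries of WT (log2 fold change -0.57, SE 1.69, adjusted p = 0.985).

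**Figure D2:**
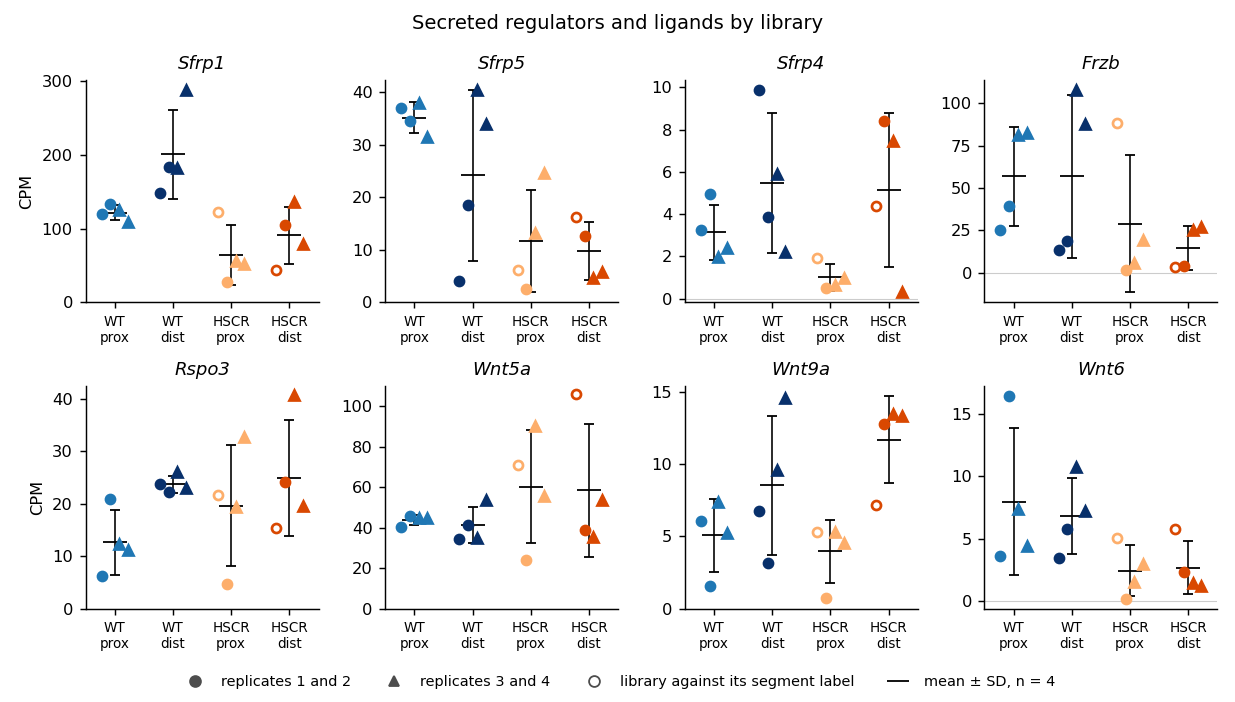
CPM of 8 secreted Wnt regulators and ligands in each library, with a mean ± SD (n = 4) per group. Circles are libraries numbered 1 and 2, triangles those numbered 3 and 4, and open circles the 2 HSCR libraries that went against their segment labels. All WT distal libraries exceed the WT proximal ones for Sfrp1 and Rspo3, and Sfrp5 lies at 31.5 to 37.9 CPM in WT proximal and at 2.60 to 24.7 CPM in HSCR proximal libraries.

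In HSCR mice the distal libraries lay above the proximal ones without overlap for 1 member, Wnt9a, against 1.39% of all genes. No member and no other gene (0%) passed the adjusted threshold, and 3 of the 34 members had an unadjusted p under 0.05, all with higher distal values, against 2.59% of all genes. The 3 were Wnt9a, Sfrp4 and Wnt10b, of which Wnt10b passed the filter on low counts only through distal libraries. With a filter of CPM above 1 in 4 libraries, 2 of 32 members had such a p, with 412 of 15869 genes. RUVr called Wnt9a and Wnt10b, with 2.12% of all genes. Wnt9a, a ligand known from joint development, read 5.27, 0.731, 5.33 and 4.51 CPM in HSCR proximal and 7.18, 12.8, 13.5 and 13.3 CPM in HSCR distal libraries. The lowest of the distal values was that of the library labelled HSCR distal 1. This gave a log2 fold change of 1.56 (SE 0.62, adjusted p = 1), and one of 1.89 without both libraries numbered 1 (adjusted p = 0.629).

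Sfrp4, a secreted Frizzled-related protein of low abundance here, was at 1.92, 0.512, 0.625 and 0.966 CPM in HSCR proximal and at 4.40, 8.42, 7.45 and 0.300 CPM in HSCR distal libraries. The last of these, HSCR distal 4, was the lowest of all 8, so the groups overlapped in spite of a log2 fold change of 2.35 (SE 0.81, adjusted p = 1). Without both libraries numbered 1 it was 2.93 (adjusted p = 0.616). Wnt10b was at 0.100, 0, 0.0368 and 0 CPM in the proximal and 0.686, 1.90, 0.162 and 0 CPM in the distal libraries, and it had no counts in HSCR distal 4 as in WT distal 4. Its fitted log2 fold change was 4.12 (adjusted p = 1) and 5.25 without both libraries numbered 1 (adjusted p = 0.678).

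Sfrp1 depended on the doubted libraries. It read 123, 27.6, 55.7 and 52.2 CPM in HSCR proximal and 44.7, 105, 136 and 79.3 CPM in HSCR distal libraries. The library labelled HSCR proximal 1 was the highest of its group, and the library labelled HSCR distal 1 was the lowest of its own. With all libraries the log2 fold change was 0.50 (SE 0.40, adjusted p = 1). Without both it was 1.23 (SE 0.34, adjusted p = 0.542), and the remaining 3 distal libraries lay above the 3 proximal ones. For Fzd4 the log2 fold change was 0.68 (adjusted p = 1) with and 1.64 (adjusted p = 0.660) without both, and its groups overlapped in either case. The direction turned for Frzb, from -0.96 to 1.02, for Wnt2, from 0.45 to -1.31, and for Lrp5, from -0.025 to 0.17. Leaving both out gave 4 members at an unadjusted p under 0.05, with 7.48% of all genes. The members without overlap were then Sfrp1 and Wnt9a, with higher distal values, and Rspo2 and Wnt2, with lower ones, against 11.7% of all genes.

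**Figure D3:**
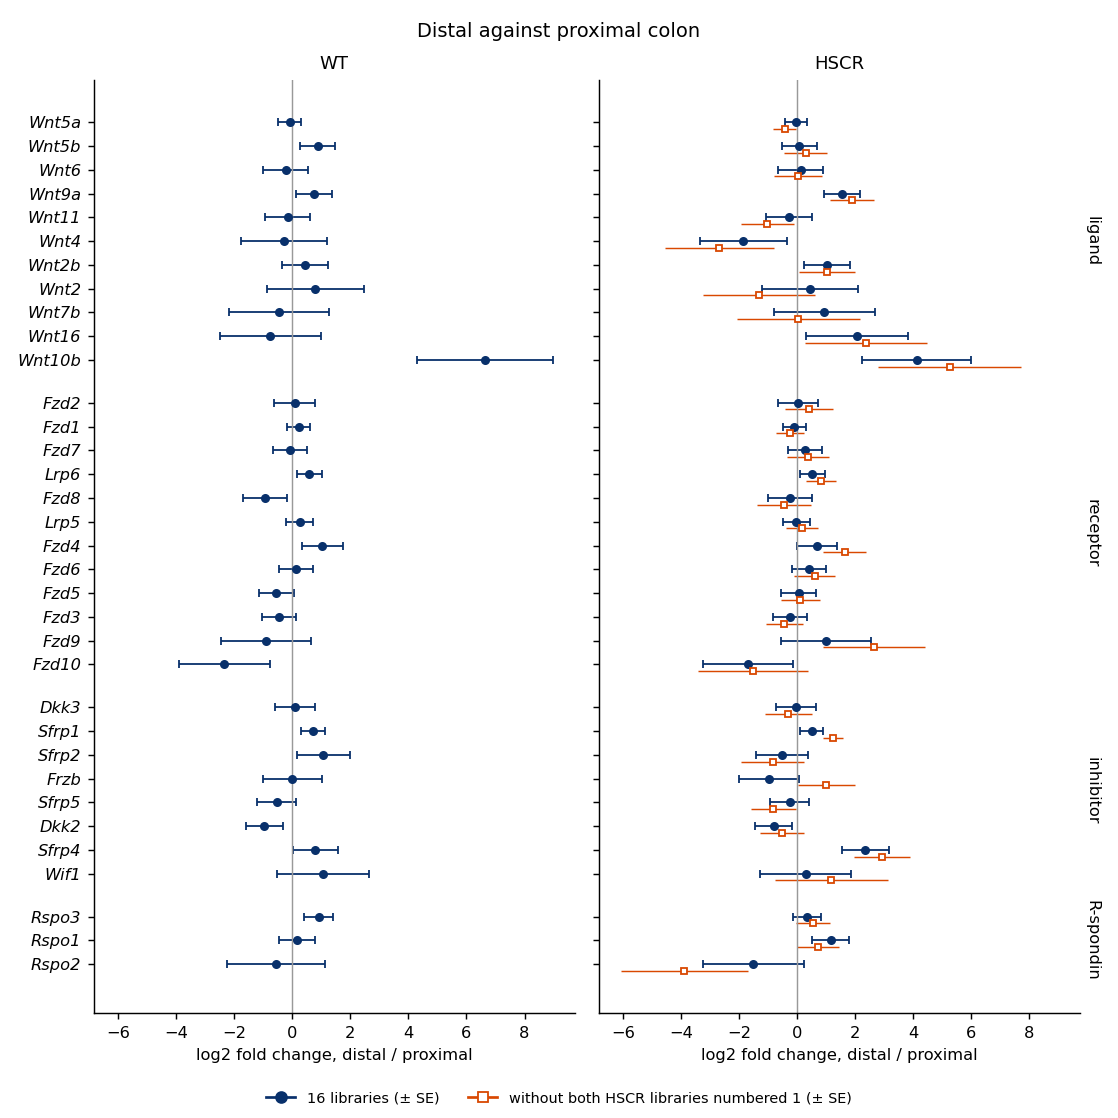
Log2 fold change of distal over proximal colon with its SE for the 34 members, in WT (left) and HSCR (right) mice. Filled circles use all 16 libraries, and open squares, drawn for HSCR only, leave out both HSCR libraries numbered 1. Sfrp1 lies at 0.72 in WT, and in HSCR it moves from 0.50 to 1.23 when both are left out. The far point of Wnt10b in WT rests on a group without counts and sets no bound.

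Averaged over both genotypes, 4 members had an unadjusted p under 0.05, each with a higher distal value, against 7.56% of all genes (0% at the adjusted threshold). One of them, Wnt10b, passed the filter on low counts only through distal libraries, so its direction is not separate from the filter. With a filter of CPM above 1 in 4 libraries, 3 of 32 members had such a p, with 1246 of 15869 genes. Wnt10b had a fitted log2 fold change of 5.38, Sfrp4 one of 1.57, Wnt9a one of 1.16 and Sfrp1 one of 0.61, with adjusted p-values of 0.645 to 0.659. Without both HSCR libraries numbered 1, Sfrp1 had a log2 fold change of 0.99 (SE 0.22, adjusted p = 0.166), Fzd4 joined with 1.35 (adjusted p = 0.279) and the percentage of all genes was 13.4%. Wnt10b was then at 5.94, Sfrp4 at 1.88 and Wnt9a at 1.33, with adjusted p-values of 0.236, 0.247 and 0.280. The summed level of 7 posterior Hox genes, taken as a mark of the distal bowel, was 84.2 to 112 CPM in WT proximal and 205 to 304 CPM in WT distal libraries. Hoxd13 carried much of the distal sum, at 0.904 to 23.9 CPM in the proximal and 112 to 201 CPM in the distal libraries. Hoxa13, Hoxb13 and Hoxd12 were also higher in all WT distal libraries, and Hoxd10 and Hoxd11 overlapped. Hoxa11 went the other way, at 27.9 to 30.8 CPM in the proximal and 14.6 to 16.7 CPM in the distal libraries. Neuronal marker sums (12 genes) overlapped, at 639 to 3600 CPM in WT proximal and 98.7 to 2420 CPM in WT distal libraries, and their part in these differences was not tested. The test of whether the segment difference itself varied with genotype gave 0 of 34 members at an unadjusted p under 0.05, against 1.44% of all genes, and 0% at the adjusted threshold. Without both libraries numbered 1 it again gave 0 members, against 1.93% of all genes. Sfrp1, Wnt9a and Sfrp4 thus showed no regional difference that could be told apart between WT and HSCR at this spread.

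The comparison of genotypes in the proximal colon addressed the segment taken as ganglionic in HSCR mice, in which neuronal sums were uneven (84.2, 132, 2890 and 2090 CPM in libraries 1 to 4). There, Sfrp1, Sfrp4 and Sfrp5 read lower in HSCR, Sfrp4 and Sfrp5 without overlap (2 members, against 4.82% of all genes in either direction). Sfrp2 did not share this, with 7.08 to 42.7 CPM in WT proximal and 3.18 to 131 CPM in HSCR proximal libraries. None passed the adjusted threshold (0% of all genes), and 3 members, Sfrp1, Sfrp5 and Wnt6, had an unadjusted p under 0.05 with lower values, against 7.08% of all genes. RUVr called 4 members, Sfrp5 and Wnt6 with lower and Wnt4 and Wnt10b with higher values in HSCR, with 10.6% of all genes. Sfrp5 read 6.25, 2.60, 13.3 and 24.7 CPM in the HSCR proximal libraries, all below the 31.5 to 37.9 CPM of WT. HSCR over WT gave a log2 fold change of -1.59 (SE 0.68, adjusted p = 0.704), and one of -1.33 without both libraries numbered 1 (adjusted p = 0.738). Sfrp4 read 3.24, 4.94, 1.99 and 2.42 CPM in WT proximal libraries, and the highest HSCR proximal library, the one labelled HSCR proximal 1, was just below the lowest of these, at 1.92 CPM (log2 fold change -1.64, SE 0.79, adjusted p = 0.716, and -2.11 without both libraries numbered 1, adjusted p = 0.723).

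For Sfrp1 the library labelled HSCR proximal 1 lay within the WT range at 123 CPM, and the other 3 HSCR proximal libraries were at 27.6 to 55.7 CPM. Its log2 fold change was -0.92 (SE 0.41, adjusted p = 0.704) and -1.39 (SE 0.33, adjusted p = 0.723) without both libraries numbered 1. The lowest value came from HSCR proximal 2, the library with the high epithelial and low smooth muscle sums, and without it the log2 fold change was -0.66. Frzb, a relative of the Sfrp proteins best known from cartilage, varied widely: 25.2, 39.4, 81.2 and 82.6 CPM in WT proximal and 88.7, 1.61, 6.05 and 19.6 CPM in HSCR proximal libraries. The high HSCR value was again in the library labelled HSCR proximal 1, and the log2 fold change was -0.98 (SE 1.02, adjusted p = 0.851) with and -2.61 (adjusted p = 0.723) without both. Wnt6, a ligand known from epithelia, read 3.62, 16.4, 7.38 and 4.45 CPM in WT proximal and 5.05, 0.219, 1.54 and 3.01 CPM in HSCR proximal libraries (log2 fold change -1.70, adjusted p = 0.705, and -2.27 without both, adjusted p = 0.723). Its WT proximal mean rested in part on WT proximal 2, and without that library the log2 fold change was -1.07.

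Leaving out both HSCR libraries numbered 1 gave 5 members without overlap in the proximal colon, all lower in HSCR, with 7.48% of all genes. Of the 8 inhibitors tested, 4 were among them: Sfrp1, Sfrp4, Sfrp5 and Frzb. The fifth was Wnt6. All 5 had their lowest value in HSCR proximal 2, the library with the high epithelial and low smooth muscle sums. With only that library left out, the log2 fold change was -1.25 for Sfrp5 and -0.58 for Frzb. The median log2 fold change of the 8 inhibitors was -0.40 with all libraries and -0.71 without both libraries numbered 1, beside 0.088 and 0.097 over all genes. With the library series as a term it was -0.078. Of the 12 receptors, 8 had values above 0, with a median of 0.33, or 0.14 without both. Beside the uneven neuronal sums, epithelial sums were 757, 19700, 3510 and 257 CPM in the HSCR proximal libraries, and the part of these cell types in the lower Sfrp levels was not tested.

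The distal colon compared the segment that lacks ganglia in HSCR mice with that of WT. In it, Sfrp1 was the only member of the 34 whose libraries did not overlap, against 1.88% of all genes, and the only one with an unadjusted p under 0.05, against 3.8% of all genes (0% at the adjusted threshold). RUVr called 1 member, Rspo2, with 3.99% of all genes. Without both libraries numbered 1, 5 members had an unadjusted p under 0.05 (Sfrp1, Sfrp5, Wnt6, Rspo2 and Fzd5, against 5.95% of all genes), and Sfrp1 and Wnt6 did not overlap, both lower in HSCR (against 5.32%). Sfrp1 read 44.7 to 136 CPM in the 4 HSCR distal libraries, below the 149 to 289 CPM of WT distal. For Sfrp1 the log2 fold change was -1.14 (SE 0.41, adjusted p = 1) and -0.91 (adjusted p = 0.583) without both libraries numbered 1. Within the libraries numbered 1 and 2 the difference was -1.27 and within those numbered 3 and 4 it was -1.14. Sfrp1 in HSCR therefore read lower than in WT in both segments. Neuronal sums were 1350 CPM in the library labelled HSCR distal 1 and 21.4 to 93.1 CPM in the other 3, against 98.7 to 2420 CPM in WT distal. The part of neurons in the Sfrp1 difference was not tested.

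Sfrp5 was at 16.2, 12.7, 4.69 and 5.72 CPM in HSCR distal libraries, which overlapped the wide WT distal range of 4.01 to 40.4 CPM (log2 fold change -1.30, adjusted p = 1, and -1.65 without both libraries numbered 1, adjusted p = 0.827). Its within-series differences had opposite signs, 0.73 and -2.83. Wnt6 read 3.47, 5.77, 10.7 and 7.25 CPM in WT distal and 5.81, 2.31, 1.43 and 1.20 CPM in HSCR distal libraries. The library labelled HSCR distal 1 was the one inside the WT range, and the log2 fold change was -1.34 (adjusted p = 1) with and -2.05 (adjusted p = 0.680) without both. Rspo2 was at 0.972 CPM in the library labelled HSCR distal 1 and at 0 to 0.184 CPM in the other 3, with a fitted log2 fold change of -3.04 (adjusted p = 1), or -5.16 without both (adjusted p = 0.787). WT distal 3, at 6.33 CPM, carried much of it, and without that library the value was -1.92.

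Receptors read higher in HSCR distal than in WT distal libraries for 11 of the 12, with a median log2 fold change of 0.56, or 0.46 without both libraries numbered 1 (again 11 of 12). This count was 9 with limma-voom or RUVr, and 7 without HSCR distal 4, with a median of 0.083. The median over all genes was 0.063, with 10308 of 18619 above 0. None of the 12 had an unadjusted p under 0.05 with all libraries. Fzd5, a receptor of the intestinal crypt and of Paneth cells, had the smallest p among them, with 5.88, 5.37, 20.0 and 24.0 CPM in WT distal and 12.9, 8.65, 45.3 and 52.7 CPM in HSCR distal libraries. In each genotype libraries 3 and 4 were far above libraries 1 and 2. Its log2 fold change was 1.11 (SE 0.60, adjusted p = 1) and 1.35 without both (adjusted p = 0.831).

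**Figure D4:**
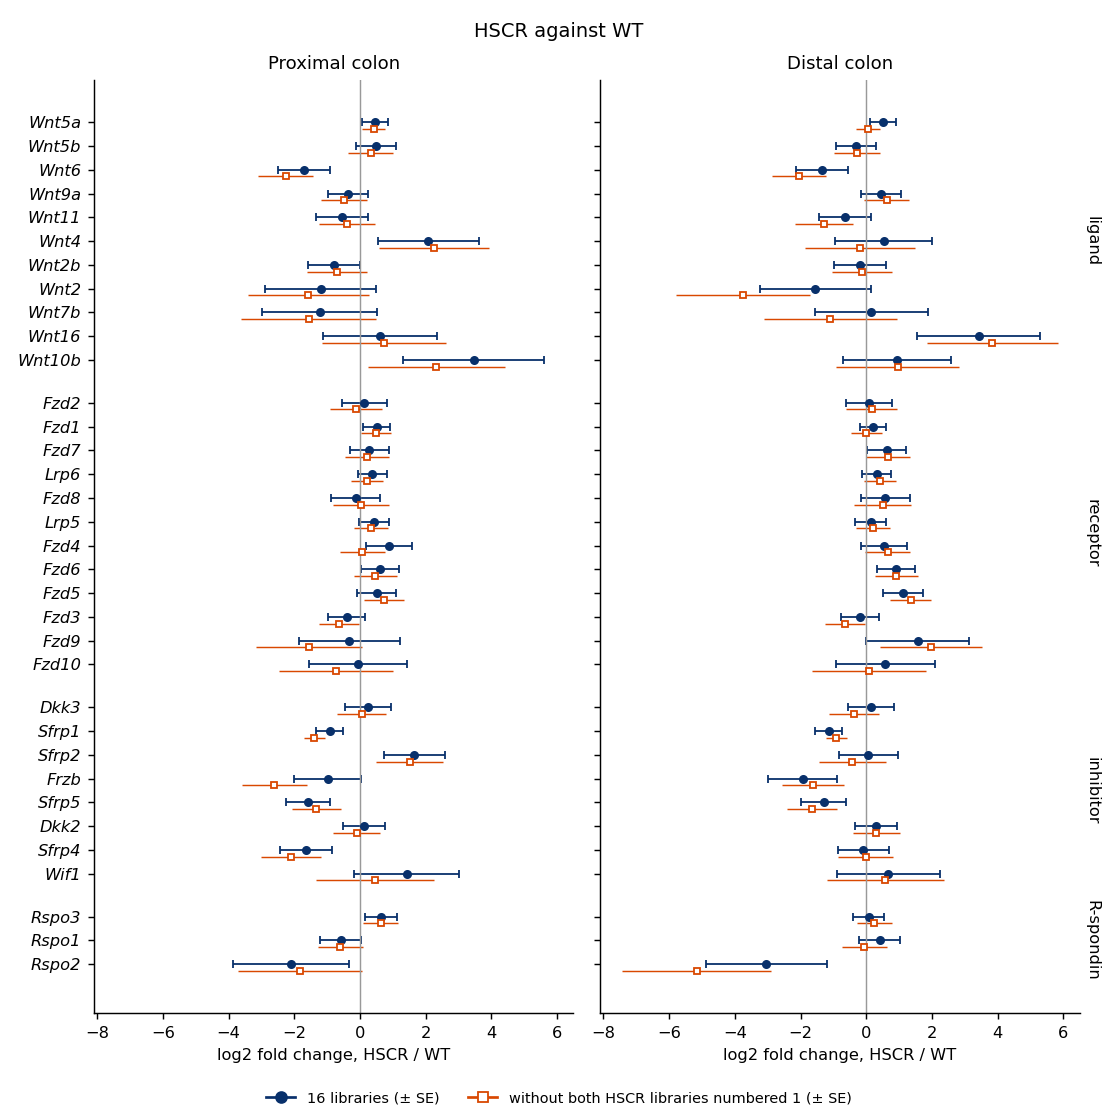
Log2 fold change of HSCR over WT with its SE for the 34 members, in the proximal (left) and distal (right) colon. Filled circles use all 16 libraries and open squares leave out both HSCR libraries numbered 1. Sfrp1 lies below 0 in both segments, at -0.92 and -1.14, and 11 of the 12 receptors lie above 0 in the distal colon (7 without HSCR distal 4).

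The names of the libraries numbered 1 and 2 are of another style than those numbered 3 and 4, and the meaning of this is not given in the sources used here. In WT distal colon libraries 1 and 2 lay below libraries 3 and 4 for 11 of the 12 receptors, against 31.4% of all genes, the exception being Fzd9. Fzd8 read 6.95 and 8.34 against 43.4 and 40.6 CPM, and Fzd7 20.8 and 20.2 against 49.4 and 73.6 CPM. Of all 34 members, 23 were lower in libraries 1 and 2 and 2 were higher. In WT proximal colon this held for 13 members, 5 of them receptors, against 25.0% of all genes. In HSCR distal colon it held for 10 members, 8 of them receptors, against 25.4%, and in HSCR proximal colon for 5 members, 1 of them a receptor, against 17.7%.

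With the doubted library left out, library 2 alone lay below libraries 3 and 4 for 10 receptors in each HSCR segment, while 42.8% of all genes did so in the proximal segment and 43.0% in the distal one. Smooth muscle sums moved with this split in WT. They were 30700 and 30900 CPM in libraries 1 and 2 and 81700 and 80100 CPM in libraries 3 and 4 of WT proximal, and 45700 and 24500 against 73100 and 62100 CPM in WT distal. Fibroblast sums (6 genes) were 7890 and 8500 against 9640 and 9660 CPM and 7960 and 6690 against 10100 and 9820 CPM. Other cell types split as well. Neuronal sums were 639 and 1350 against 3600 and 3220 CPM in WT proximal, and 98.7 and 352 against 2420 and 1720 CPM in WT distal. Mesothelial sums were also lower in libraries 1 and 2. Macrophage sums (4 genes) went the other way, at 132 and 68.4 against 34.1 and 42.9 CPM and 201 and 112 against 47.9 and 42.1 CPM, as did adipocyte sums. The part of any of these cell types in the receptor levels was not tested.

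**Figure D5:**
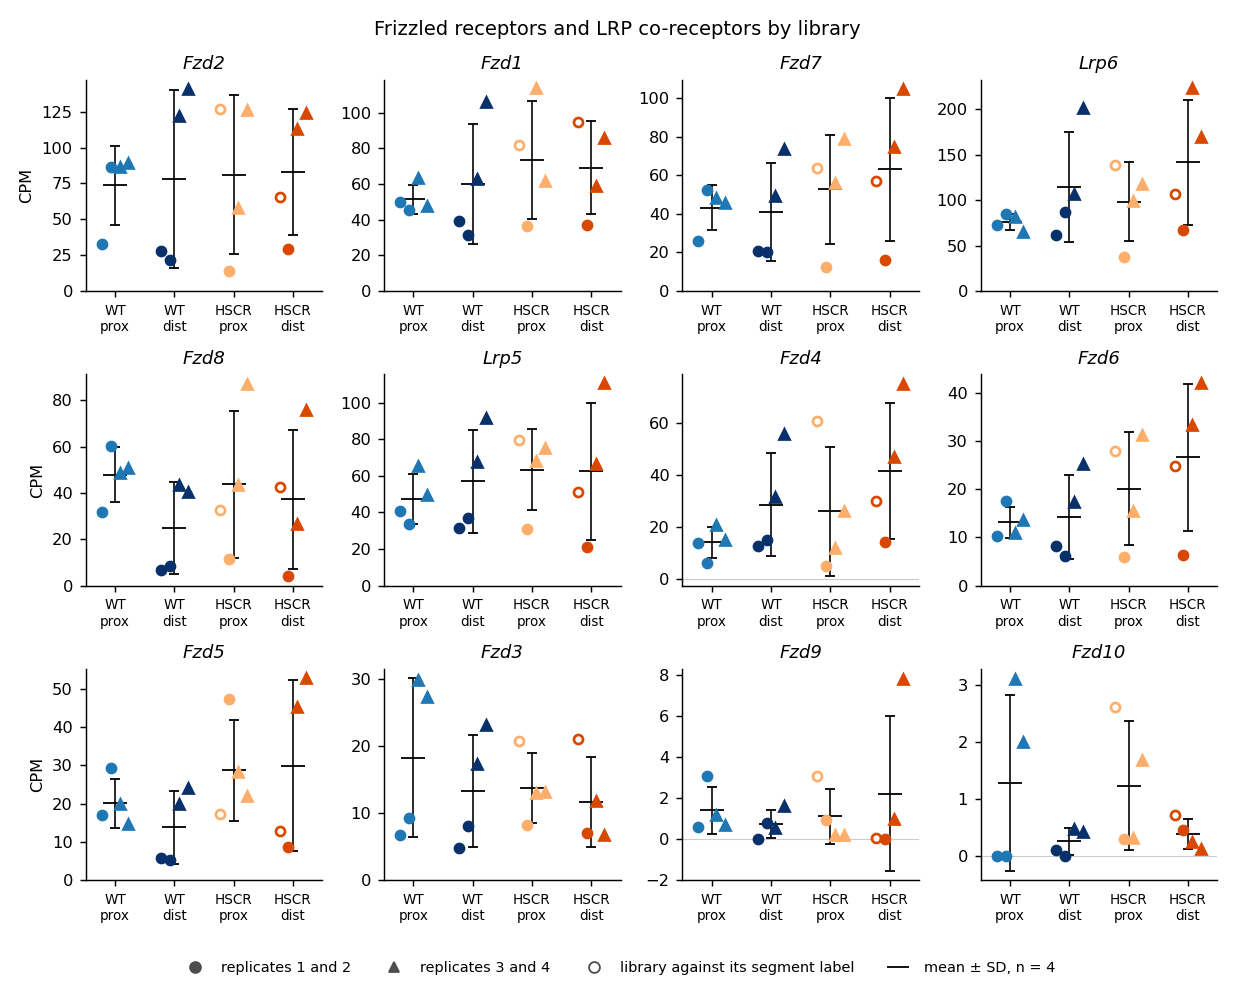
CPM of the 12 Frizzled and LRP receptors in each library, with a mean ± SD (n = 4) per group; circles are libraries numbered 1 and 2, triangles those numbered 3 and 4, and open circles the 2 HSCR libraries that went against their segment labels. In WT distal colon both triangles lie above both circles for every receptor except Fzd9.

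The rest of the pathway was followed in 5 lists of genes, and no gene of any list passed the adjusted threshold in any of the 6 contrasts. Between WT distal and proximal colon, 1 of 25 cytoplasmic and nuclear components had an unadjusted p under 0.05: Axin1, a scaffold of the complex that degrades beta-catenin, at 19.8 to 46.7 CPM in the proximal and 40.7 to 59.1 CPM in the distal libraries (log2 fold change 0.74, adjusted p = 0.956). Of 16 feedback and target genes tested, 1 did so: Cd44, a surface glycoprotein and Wnt target, at 65.9 to 104 CPM in the proximal and 15.4 to 47.0 CPM in the distal libraries, without overlap (log2 fold change -1.59, adjusted p = 0.956). None did so among 11 co-receptors and R-spondin receptors, 12 secretion and extracellular factors or 11 planar polarity genes. Of the 12 secretion and extracellular factors, 11 had lower distal values in WT, with a median log2 fold change of -0.36 (8 of 13 tested without WT distal 1), beside 9445 of 18619 genes with higher distal values.

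Between genotypes, all 11 co-receptors and R-spondin receptors tested (Lgr4, Lgr5, Lgr6, Znrf3, Rnf43, Ror1, Ror2, Ryk, Ptk7, Kremen1 and Kremen2) had values above 0 for HSCR over WT in both segments, with proximal and distal medians of 0.65 and 0.88, or 0.61 and 1.00 without both libraries numbered 1. None of them had an unadjusted p under 0.05, and 9 of 11 were above 0 in the distal colon with limma-voom or RUVr. Without both libraries numbered 1, Znrf3 was at -0.34 in the proximal colon. HSCR proximal 2, the library with the highest epithelial sum, held 32.8 CPM of Rnf43 and 9.69 CPM of Lgr5. Other HSCR proximal libraries held at most 5.16 and 0.662 CPM of these. The remaining genes of this list except Kremen2 were lowest of their group in HSCR proximal 2. Of the 16 feedback and target genes, 13 read higher in HSCR in proximal libraries and 14 in distal ones (12 and 10 without both libraries numbered 1), with 1 and 0 at an unadjusted p under 0.05 and medians of 0.29 and 0.35. The cytoplasmic and nuclear components did not share this direction, with 12 of 25 above 0 in proximal and 11 in distal libraries (medians -0.063 and -0.057). Of the 12 secretion and extracellular factors 7 and 10 were above 0 (medians 0.096 and 0.39), or 4 and 8 of 13 without both libraries numbered 1 (medians -0.24 and 0.18). Of the 11 planar polarity genes 7 were above 0 in either segment. Over all 18619 genes, 10426 and 10308 were above 0, with medians of 0.088 and 0.063. Lgr5, Rnf43 and Znrf3 were both in the list of co-receptors and R-spondin receptors and in that of targets, so those counts are not separate. Among the targets, Sox9, Ascl2 and Axin2 were highest in HSCR proximal 2, at 57.8, 20.2 and 41.3 CPM. Nkd1 and Ephb3 were lowest of their group there. The part of the epithelium in these values was not tested.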

How the data were processed

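RNA-seq of colonic LMMP from 16 libraries was analysed. Per the labels and the study's methods, the authors used HISAT2 2.2.1 for alignment (mm39) and featureCounts 2.0.6 with a GENCODE model for gene counts; the deposited counts are whole numbers without normalization. FPKM values were also deposited by the authors and were used only for levels between genes. Columns of the authors' own fold changes and p-values were not used. Groups followed the titles; for the distal libraries the tissue entries say proximal. No library was identical to another (0 pairs). No source used here says which libraries share a mouse. Names of libraries 1 and 2 share a number across segments and genotypes, whose meaning is not given. The p-values therefore set group differences against the spread between these libraries and treat the libraries as independent. Proximal and distal libraries of the same mouse would not be independent.

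Genes were filtered with filterByExpr (edgeR 4.0.16, R 4.3.3), normalized by TMM and tested with edgeR's robust quasi-likelihood test in 1 model of 4 groups over 16 libraries (12 residual degrees of freedom), with Benjamini-Hochberg adjustment over 18619 genes and a threshold of 0.05. CPM used TMM factors; log2 CPM used a prior count of 0.5. SE is the log2 fold change over the square root of F. Members with full values were, per role, those with the smallest p between WT segments (2 per role) and the highest mean FPKM; Sfrp4, Sfrp5, Wnt9a, Wnt6, Frzb and Fzd5, and the further receptors and list genes with values, were chosen after their values were seen, except Axin1 and Cd44, among the 3 smallest p of their lists. The members and lists were chosen with earlier results of these data known. Alternatives were DESeq2 1.42.0, RUVr with 4 factors and a likelihood ratio test as in the study, limma-voom with quality weights (limma 3.58.1), upper quartile scaling, mitochondrial genes left out, no filter, CPM above 1 in 4 libraries, only the groups compared, a log2 limit of 1, a replicate or library series term, and libraries left out. The fit was tested on simulated data. Figures and tables used Python 3.11.15, pandas 2.3.3, numpy 2.4.6 and matplotlib 3.10.9.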

Additional observations from a re-analysis of the deposited data

Results flagged for a closer look

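Of 68 groups of 4 libraries examined over 17 genes, 2 held a library far from the other 3 by Dixon's criterion at 95%, and chance gives about 1 in 20. Fzd2 in WT proximal 1 was at 32.6 CPM, with the other 3 WT proximal libraries between 86.5 and 89.2 CPM and a gap of 0.952 of the range. Wnt9a in the library labelled HSCR distal 1 was at 7.18 CPM, with the other 3 HSCR distal libraries between 12.8 and 13.5 CPM and a gap of 0.889 of the range. That library is 1 of the 2 that went against their segment labels, and WT proximal 1 is the library with the highest mitochondrial percentage (49.8%).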

How the results depend on the processing

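No Wnt gene was called in any of the 6 contrasts under DESeq2, limma-voom, the other scalings, filters and thresholds, the replicate block, the series term or any library left out. RUVr with 4 factors called 1 member between WT segments (Wnt10b), 2 between HSCR segments and 2 in their average (Wnt10b and Wnt9a), 4 between genotypes in the proximal colon (Sfrp5, Wnt6, Wnt4 and Wnt10b), 1 in the distal colon (Rspo2) and 1 in the interaction (Wnt10b), where it called 6.64%, 2.12%, 7.01%, 10.6%, 3.99% and 3.95% of all genes. Of 827 alternative values of 31 log2 fold changes, 805 kept their direction and side of the threshold, 8 crossed it (all with RUVr) and 14 turned direction. The turned ones were all between WT segments: Rspo2 (0.16 with RUVr), Dkk3 (-0.35 with RUVr, -0.073 with the replicate block, -0.11 with the series term) and Fzd2 (-0.12, -0.39 and -0.24). With 1 library left out, 0 members were called in every case, and ranges were -1.69 to 0.50 for Rspo2 (turned without WT proximal 4), -0.32 to 0.41 for Dkk3 (turned without WT proximal 2, WT distal 3 or WT distal 4) and -0.32 to 0.40 for Fzd2 (turned without WT proximal 1, WT distal 3 or WT distal 4). Members at an unadjusted p under 0.05 between genotypes ranged from 0 (without WT proximal 2 or HSCR proximal 3) to 4 (without HSCR proximal 1) in the proximal colon, from 1 to 5 (without HSCR distal 1) in the distal colon, and from 2 to 5 (without HSCR proximal 1) between HSCR segments. The cause was not tested. Same-numbered libraries correlated in their deviations from the group means by 0.096 to 0.42 between WT segments and 0.00013 to 0.36 between HSCR segments. Between genotypes the values were -0.12 to 0.25 in the proximal and -0.21 to 0.42 in the distal colon. Between segments, 3 of 4 WT libraries correlated best with their own number, libraries 1 and 2 among them. Only libraries 1 and 2 share a number in their names, so this check does not settle whether they are paired. The main test did not use the numbers as pairs, and the replicate block called 0 members. Depth limits the scarce members: Wnt10b had at most 51 counts in a library.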
